A study of Homo sapiens with 18 samples.

Results

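Ephrin receptors and their ligands are described here by 10 genes, found by their symbols: the A-class receptors EPHA2, EPHA4 and EPHA7, the B-class receptors EPHB2, EPHB3, EPHB4 and EPHB6, and the ligands EFNA1, EFNB1 and EFNB2. All 10 were listed among 15094 genes with a symbol in PC3 cells and among 20967 in 22RV1 cells. PC3 is a human cell line from metastatic, castrate-resistant prostate cancer, and 22RV1 is another castrate-resistant line. PC3 cells were kept for 24 h with DMSO (control) or with 10 µM canagliflozin (CANA), an inhibitor of the glucose transporter SGLT2. 22RV1 cells had DMSO (control), 10 µM CANA, 5 Gy of radiation (RT) or 10 µM CANA with 5 Gy (CANA + RT), also for 24 h. RNA of whole cultures was sequenced, with 3 libraries in each of the 6 groups, named A, B and C. Nothing in the labels says that these came from separate cultures, so the p-values measure only the spread between these libraries. In RNA of whole cultures, fewer cells that express a gene and less RNA in each cell cannot be told apart.

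Eph receptors form the largest family of receptor tyrosine kinases, and their ligands, the ephrins, are themselves held on the surface of the neighbouring cell. A-class ephrins are tethered by a lipid anchor and B-class ephrins cross the membrane, so contact between cells can signal forward through the receptor and backward through the ephrin. The family is known for cell sorting, tissue boundaries, vessel formation and cell movement, and EPHA2 for its raised level in many epithelial cancers, those of the prostate among them.

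The lines were checked against their markers. KLK2 and KLK3, which encode prostate kallikreins, were not listed in PC3 cells. In 22RV1 control cells KLK2 was at 391.6 and KLK3 at 196.1 on the scale of 2 to the power of rlog, the regularized log2 value that was deposited for this line. VIM, a mesenchymal filament gene used here as a PC3 marker, was at 36570 normalized reads (reads divided by the size factor of the library) in PC3 control cells and at 47.8 on the back-transformed scale in 22RV1 control cells. All 4 genes of the radiation list rose in 22RV1 RT cells, CDKN1A by 1.06 and BBC3 by 1.35 in rlog. PC3 libraries held 15.8 to 28.3 M recovered reads, and the depth of the 22RV1 libraries is unknown. On the first principal component of PC3, which held 66.1% of the variance, CANA library B was at 50.5 and the other 5 libraries between -17.4 and -1.58. In 22RV1 the first component (83.4% of the variance) split irradiated from unirradiated libraries.

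The 2 lines differed in which members were most abundant per length. In PC3 control cells EPHA2 led with 3278 normalized reads per kilobase of annotated exon, within 3120 to 3366 over the 3 libraries. EFNB1, a transmembrane ligand of B-class receptors, followed with 1016, and EPHB4, the main receptor of ephrin-B2 in vessels, with 538. These are levels, and their ranges over the libraries did not overlap.

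The middle of the PC3 order held EFNB2, the ephrin-B2 gene, at 190.5 normalized reads per kilobase, EFNA1, a ligand of EPHA2, at 124, EPHB3 at 71.5 and EPHB2 at 51.0. At the low end EPHA4, a receptor that binds ephrins of both classes, was at 13.5, EPHA7 at 9.40 and EPHB6, whose kinase domain is inactive, at 2.64. No neighbours in the PC3 order had overlapping library ranges. With the length of the canonical transcript in place of all annotated exons, EPHA7 moved above EPHA4, at 23.4 against 16.0, since the annotated exons of EPHA7 (16.5 kb) are longer than its canonical transcript (6.62 kb).

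In 22RV1 control cells EFNA1 led with 490 per kilobase on the scale of 2 to the power of rlog, followed by EPHB4 at 325, EPHA2 at 169 and EPHB3 at 122. EFNB2 (85.4) and EFNB1 (81.6) did not differ beyond their library ranges. EPHA7 was at 46.0 per kilobase of exon and at 114.5 per kilobase of canonical transcript, which placed it above both B-class ligands. EPHA4 was at 11.6, EPHB2 at 1.44 and EPHB6 at 0.673, and the library ranges of the other neighbours did not overlap per kilobase of exon. The levels of the lines were normalized separately, so only the order within a line can be read.

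**Figure D1:**
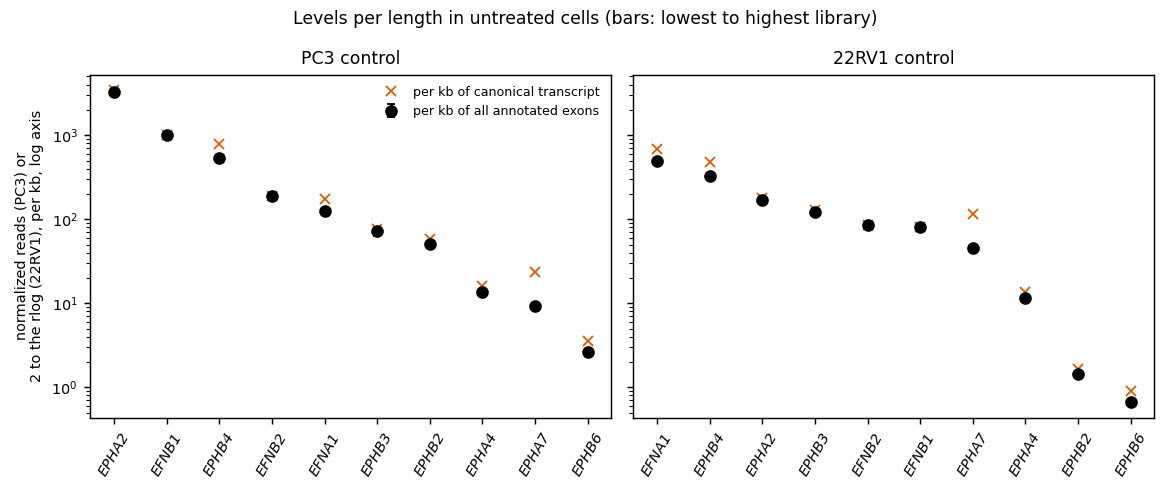
Level per kilobase of the 10 genes in PC3 control cells (left, normalized reads) and 22RV1 control cells (right, 2 to the power of rlog), on a log axis. Black points are means of 3 libraries per kilobase of annotated exon with bars from the lowest to the highest library, and crosses use the canonical transcript. EPHA2 leads in PC3 at 3278 and EFNA1 leads in 22RV1 at 490.

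In PC3 cells the question was what CANA does to these genes. No member passed the test over all 6 libraries, and neither did any other gene: limma called 0% of 13450 genes at a Benjamini-Hochberg adjusted p under 0.05, while 18.5% had an unadjusted p under 0.05. The log2 fold change was negative for 8 members and positive for 2. For 7 of the 10, EPHA2, EPHA7, EPHB2, EPHB3, EPHB4, EFNB1 and EFNB2, every CANA library lay below every control library, and 17.7% of all tested genes did the same. The median log2 fold change of the 10 members was -0.22, and that of all tested genes was -0.01. Count tests on reads recovered from these values called 0 genes with edgeR and 350 with DESeq2.

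EPHB3, a receptor known in the mouse for placing cells along the intestinal crypt, had the largest difference of the 10 genes. Its control libraries had 369, 320 and 283 normalized reads and its CANA libraries 214, 196 and 205. All 3 CANA libraries were low and close to each other, and the groups were far from overlapping. The log2 fold change, on the scale of log2(value + 1), was -0.65 (SE 0.12) with an adjusted p of 0.222 in limma, and the gene ranked 46 of 13450 by p. DESeq2 on the recovered reads called EPHB3 lower (log2 fold change -0.65, adjusted p = 0.00386). Recovered reads of EPHB3 ranged from 135 to 385 per library.

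EPHB2, the receptor that acts with EPHB3 in the mouse crypt, had 621, 677 and 617 normalized reads in control and 543, 465 and 483 in CANA libraries. The groups did not overlap, with CANA library A nearest to the controls. The log2 fold change was -0.36 (SE 0.10, limma adjusted p = 0.247). EFNB2, a ligand of EPHB4 and of EPHA4, had 942, 979 and 939.8 normalized reads in control and 816, 697 and 843 in CANA libraries. Library B was the lowest of the 3. The log2 fold change of EFNB2 was -0.28 (SE 0.10, limma adjusted p = 0.247).

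Of the other receptors, EPHA2 had 13865, 13940 and 12920 normalized reads in control and 12888, 10003 and 11759 in CANA libraries. CANA library A came close to the lowest control library and library B was far below it. The log2 fold change of EPHA2 was -0.24 (SE 0.11, limma adjusted p = 0.281). EPHA7, known in the mouse for shaping contacts in the developing brain, had 159.6, 155 and 149 normalized reads in control and 136, 94.2 and 137 in CANA libraries. Its low value came from library B. The log2 fold change of EPHA7 was -0.36 (SE 0.16, limma adjusted p = 0.28).

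EPHB4 (log2 fold change -0.20, SE 0.09) and EFNB1 (-0.20, SE 0.09) had small differences with groups that did not overlap. EPHA4 (-0.16, SE 0.17) and EPHB6 (0.05, SE 0.26) had groups that overlapped, and EPHB6 rested on 10 to 20 reads per library. EFNA1 went the other way: 282, 278 and 244 normalized reads in control and 281, 346 and 338 in CANA libraries. CANA library A lay among the controls and the other 2 above them. The log2 fold change of EFNA1 was 0.26 (SE 0.12, limma adjusted p = 0.28).

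**Figure D2:**
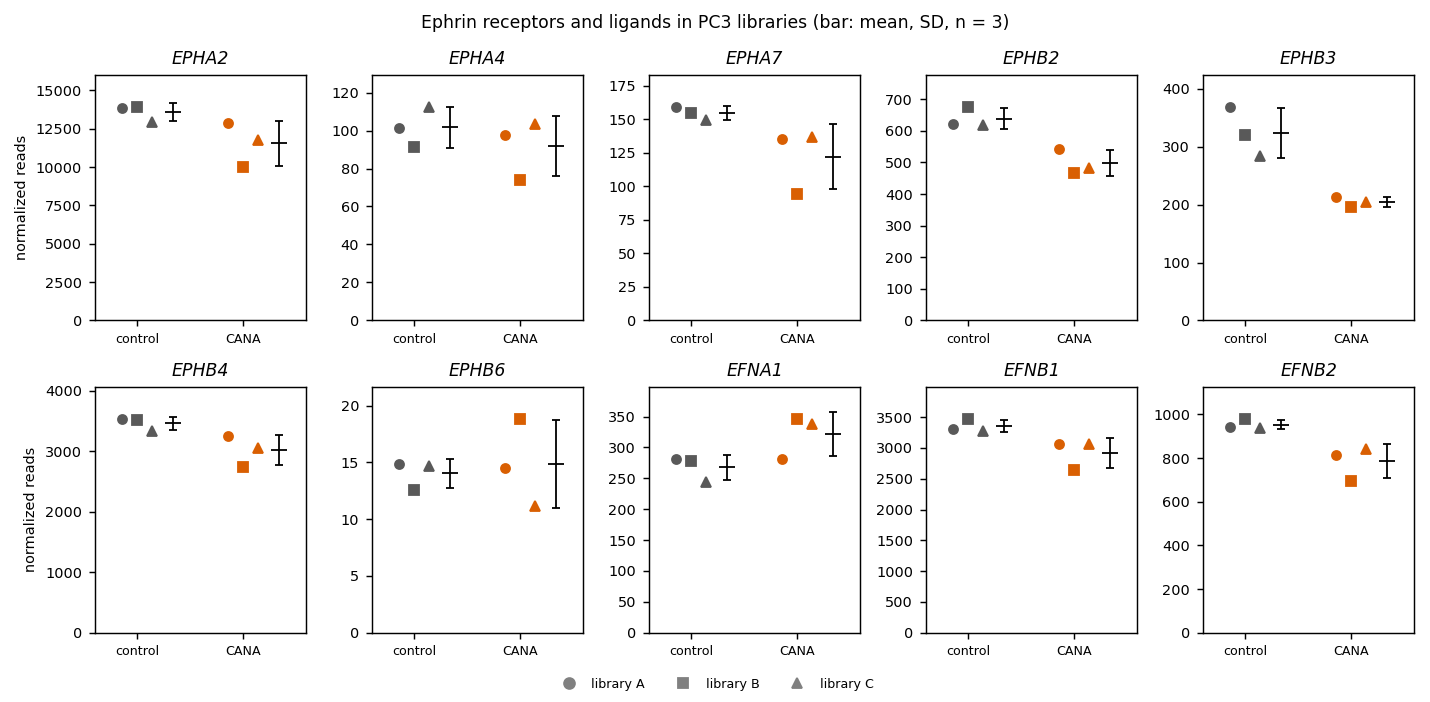
Normalized reads of the 10 genes in each PC3 library, with axes that start at 0. Points are libraries A, B and C, and the bars give mean and SD (n = 3). The CANA libraries of EPHB3 sit at 196 to 214 below control libraries at 283 to 369, and library B is the lowest CANA library of 8 of the genes.

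CANA library B of PC3 followed transcript length. Among genes with a canonical transcript under 1000 bases its median log2 difference from the control mean was 0.84, and among genes over 8000 bases it was -0.57, while libraries A and C lay between -0.05 and 0.17 in all 5 length classes. EFNA1 has the shortest canonical transcript of the members (1552 bases) and the other 9 have 3303 to 11035 bases. Without CANA library B, limma called 2683 of 13450 genes, higher and lower together. Among them were 3 members, all lower: EPHB3 (log2 fold change -0.62, adjusted p = 0.000539), EPHB2 (-0.32, adjusted p = 0.00699) and EFNB2 (-0.20, adjusted p = 0.0261). The CANA group then holds 2 libraries, whose spread limma pools with the controls. EFNA1 was at 0.21 without library B (adjusted p = 0.16). The differences of EPHA2 (-0.14, limma adjusted p = 0.0595), EFNB1 (-0.13, 0.0636) and EPHB4 (-0.14, 0.0653) were nearer to 0 without it and lay just over the threshold. Those of EPHA7 (-0.18, 0.263) and EPHA4 (-0.01, 0.964) were also nearer to 0, EPHB6 was at -0.13 (0.82), and none of these was called.

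After a curve of the log2 difference on transcript length was taken away from each library, a setting chosen after seeing the data, 41 genes and 0 members were called. EPHB3 was then at -0.59 (limma adjusted p = 0.0600) and EPHB2 at -0.13 (adjusted p = 0.534). EFNA1 went from 0.26 to 0.11 (adjusted p = 0.564), EPHA7 to -0.21, EFNB2 to -0.19, EPHB4 to -0.13, EPHA4 to -0.01 and EPHB6 to 0.10. When limma gave each library a weight estimated from the data, it called 4515 of 13450 genes, higher and lower together. Among them 6 members were lower (EPHA2, EPHB2, EPHB3, EPHB4, EFNB1 and EFNB2) and EFNA1 was higher. The fibroblast list of 5 genes, nearly all of it COL1A1, summed to 1317 to 1468 normalized reads in control and 662 to 1110 in CANA libraries, with DCN and PDGFRB at 4.13 and 4.19 in control cells. Of the endothelial list, PECAM1 and KDR were at 170 and 100 normalized reads in PC3 control cells and at 182 and 102 with CANA. VWF and CDH5 were not listed in PC3. The part of these fibroblast and endothelial genes in the differences was not tested.

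**Figure D3:**
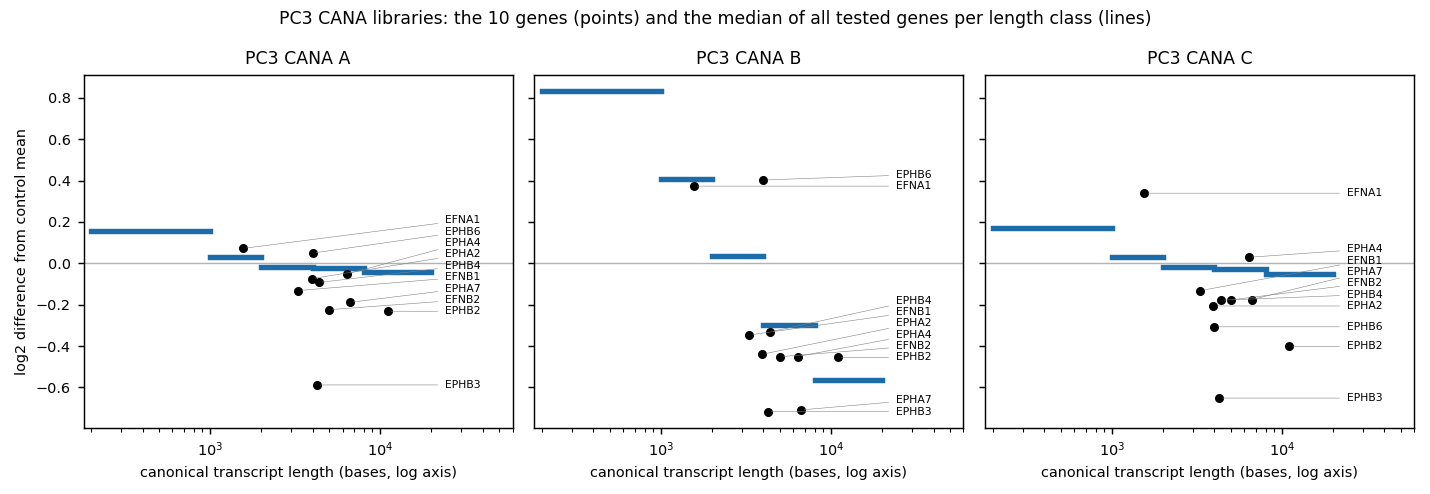
Log2 difference from the control mean (vertical) against canonical transcript length in bases (horizontal, log axis) for the 3 CANA libraries of PC3. Points are the 10 genes and blue lines the median of all tested genes in each length class. In library B the lines drop from 0.84 to -0.57, and EPHB3 lies below them in all 3 libraries.

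In 22RV1 cells CANA alone, at the same dose and time, gave no called gene: limma called 0% of 14563 genes, with 2.89% at an unadjusted p under 0.05. The 9 tested members had differences of -0.07 to 0.08 in rlog. EPHB6 lay under the filter of a mean rlog of 3. Groups did not overlap for 2 members, EPHB3 (lower) and EFNA1 (higher), and for 6.36% of all tested genes.

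EPHB3 was at rlog 9.11, 9.14 and 9.07 in control and 9.06, 8.99 and 9.05 in CANA libraries. The groups were next to each other with almost no gap. The difference was -0.07 (SE 0.04, 95% interval -0.15 to 0.01, limma adjusted p = 0.997). EFNA1 was at 10.05, 10.06 and 10.04 in control and 10.08, 10.10 and 10.07 in CANA libraries, a difference of 0.03 (SE 0.03). EFNB2 had a difference of 0.08 (95% interval -0.01 to 0.16). rlog draws differences towards 0, and the lines were normalized apart, so the sizes cannot be set against those of PC3.

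Radiation alone moved a large share of all 22RV1 genes: limma called 57.8% of 14563, with 28.4% higher and 29.4% lower. Of the 9 members tested, 5 rose (EPHA2, EPHA7, EFNA1, EFNB1 and EFNB2) and 1 fell (EPHB3), a share read against that background. The median difference of the members was 0.20 in rlog against -0.002 for all tested genes. The promoters of the 3 members with the largest differences are shown here, since they moved most and in both directions. They come from RefSeq (GRCh38.p14), run from 250 bases before to 50 bases after the start, and are read 5′ to 3′ along the gene. Capitals mark the GC box GGGCGG and the CCAAT box, on either strand.

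EPHA2, chr1:16156020-16156319, minus strand: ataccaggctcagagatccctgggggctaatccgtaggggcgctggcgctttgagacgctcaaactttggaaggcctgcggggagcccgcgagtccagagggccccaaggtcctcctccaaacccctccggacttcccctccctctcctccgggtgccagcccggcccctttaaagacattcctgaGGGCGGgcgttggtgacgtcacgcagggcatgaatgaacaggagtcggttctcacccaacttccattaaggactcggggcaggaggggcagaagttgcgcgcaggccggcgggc

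EPHA7, chr6:93419510-93419809, minus strand, the outermost of 3 starts in the table: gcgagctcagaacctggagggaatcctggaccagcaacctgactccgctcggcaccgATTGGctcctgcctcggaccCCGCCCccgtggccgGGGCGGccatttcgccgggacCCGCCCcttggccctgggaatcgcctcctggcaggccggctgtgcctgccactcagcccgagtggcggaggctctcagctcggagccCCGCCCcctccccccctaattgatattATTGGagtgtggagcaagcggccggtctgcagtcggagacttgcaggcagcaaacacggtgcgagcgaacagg

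EPHB3, chr3:184561535-184561834, plus strand: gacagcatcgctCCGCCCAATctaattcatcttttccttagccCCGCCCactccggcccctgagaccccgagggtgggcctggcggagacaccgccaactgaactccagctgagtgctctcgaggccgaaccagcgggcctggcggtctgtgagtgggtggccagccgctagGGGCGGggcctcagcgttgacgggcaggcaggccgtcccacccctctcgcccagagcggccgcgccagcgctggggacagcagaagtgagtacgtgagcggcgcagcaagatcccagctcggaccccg

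The EPHA2 window held 1 GC box, the EPHA7 window 4 GC boxes and 2 CCAAT boxes, and the EPHB3 window 3 GC boxes and 1 CCAAT box, the first of which overlaps that CCAAT box. Among 35116 promoters of the same length, 45% held a GC box and 34.6% a CCAAT box. Their GC content was 64.3%, 68.3% and 69%, with a median of 58.7% over all promoters. TATAAA (11.5% of all promoters) and the p53 half-site (6.63%) were searched on both strands too and were not found in these 3 windows. TATAAA was found 2 times in the window of another EPHA7 start, not shown. A match or its absence describes the letters only.

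EPHA7 had the largest difference of the members. It was at rlog 9.45, 9.60 and 9.64 in control and 10.50, 10.56 and 10.42 in RT libraries. Every RT library was above every control library by a gap wider than either group. EPHA7 rose by 0.93 (SE 0.05, limma adjusted p = 2.31e-15) and ranked 118 of 14563 by p.

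EPHA2 was at rlog 9.47, 9.48 and 9.40 in control and 9.92, 9.95 and 10.05 in RT libraries. It rose by 0.52 (SE 0.04, limma adjusted p = 7.39e-12), with no overlap. Its ligand EFNA1 was at 10.05, 10.06 and 10.04 in control and 10.24, 10.23 and 10.29 in RT libraries. EFNA1 rose by 0.21 (SE 0.03, limma adjusted p = 1.64e-06), so receptor and ligand were both above their controls in all 3 RT libraries.

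EPHB3 went down. Its control libraries at 9.11, 9.14 and 9.07 compare with 8.53, 8.58 and 8.60 in RT libraries. It fell by 0.54 (SE 0.04, limma adjusted p = 5.86e-12), and all 3 RT libraries were far under the controls. EPHB2 (difference 0.04, 95% interval -0.04 to 0.13) and EPHB4 (-0.001, 95% interval -0.06 to 0.06) were not called. EPHB6, tested only when no filter on low values was used, was at rlog 1.82 to 1.85 in control and 1.75 to 1.76 in RT libraries, with a difference of -0.09 (limma adjusted p = 0.00918).

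The B-class ligands both rose. EFNB2 was at rlog 8.70, 8.72 and 8.79 in control and 9.04, 8.92 and 9.08 in RT libraries, and it rose by 0.27 (SE 0.04, limma adjusted p = 4.87e-06). EFNB1 was at 8.12, 8.09 and 8.01 in control and 8.20, 8.27 and 8.35 in RT libraries, and it rose by 0.20 (SE 0.05, limma adjusted p = 0.00174). EFNB1 had the smallest gap between groups among the called members. EPHA4 was at 6.41, 6.47 and 6.47 in control and 6.49, 6.58 and 6.53 in RT libraries, without overlap, and its difference of 0.09 (SE 0.05) was not called (limma adjusted p = 0.116). EFNB2 shares 1822 exon bases with a gene on the opposite strand. Shorter overlaps of this kind were annotated for EPHA4 (353 bases), EPHA7 (147), EPHB4 (69) and EPHB2 (34). The counting used strand.

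The fibroblast list summed to 430.5 to 456 on the scale of 2 to the power of rlog in unirradiated 22RV1 libraries and to 514 to 551 in irradiated ones, mostly COL1A1 and LUM. The endothelial gene CDH5 and the leukocyte gene CD3E were not listed, and PECAM1 and KDR were at 0.357 and 0.217 in RT cells. Their part in the radiation differences was not tested.

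**Figure D4:**
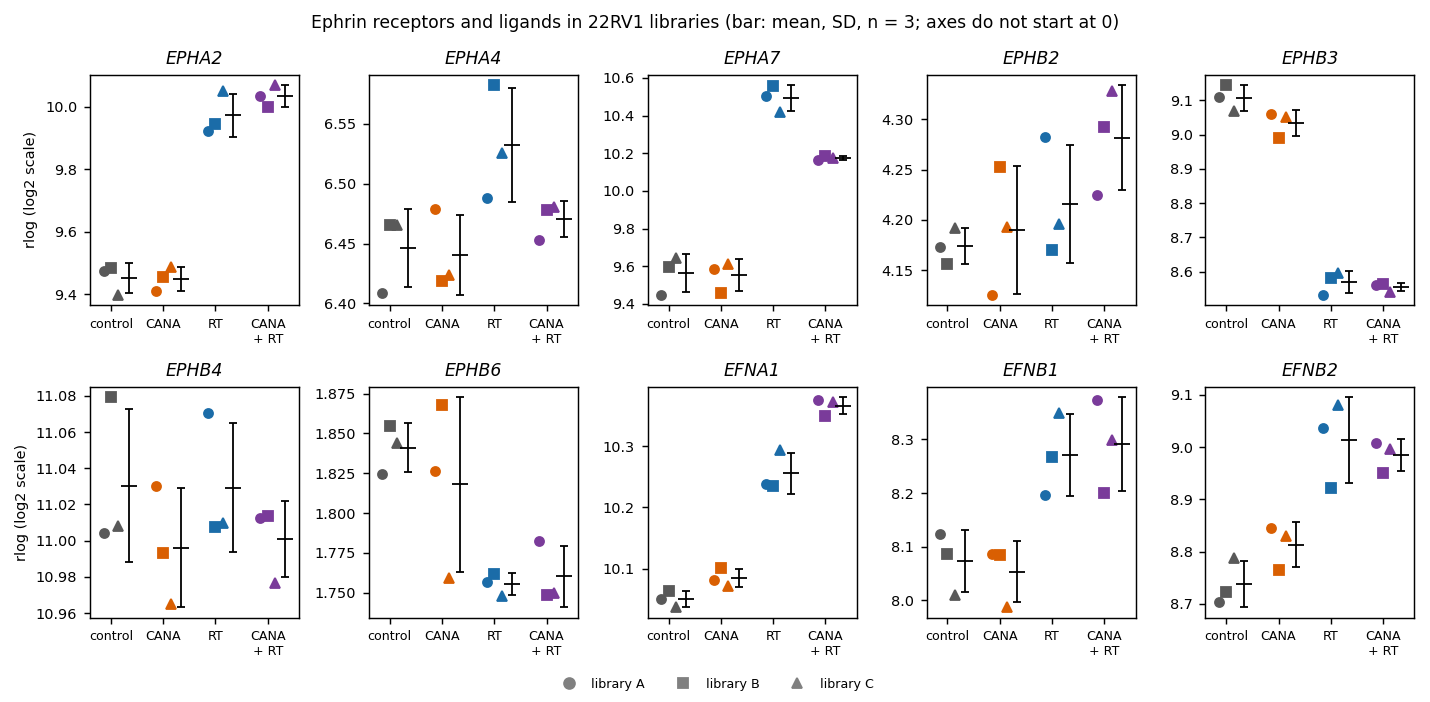
rlog (log2 scale, axes that do not start at 0) of the 10 genes in each 22RV1 library. Points are libraries A, B and C, and the bars give mean and SD (n = 3). EPHA7 sits at 9.45 to 9.64 without radiation in control, at 10.42 to 10.56 with RT and at 10.16 to 10.18 with CANA + RT.

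The question of the combined treatment was whether CANA alters irradiated cells. limma called 2.57% of 14563 genes between CANA + RT and RT, 1.40% higher and 1.17% lower, and 2 of the 9 tested members: EPHA7 lower and EFNA1 higher. EPHA7 was at rlog 10.50, 10.56 and 10.42 in RT and 10.16, 10.18 and 10.17 in CANA + RT libraries. The 3 CANA + RT libraries lay close together, under every RT library and above every unirradiated one. EPHA7 fell by 0.32 (SE 0.05, limma adjusted p = 0.000259) and ranked 10 of 14563 by p. Over 12 other settings the difference was between -0.36 and -0.29, with adjusted p of 1.27e-08 to 0.0175.

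EFNA1 was at rlog 10.24, 10.23 and 10.29 in RT and 10.38, 10.35 and 10.37 in CANA + RT libraries, and rose by 0.11 (SE 0.03, limma adjusted p = 0.0447). The call was lost without the filter on low values (adjusted p = 0.0654) and when 1 library was left out in 5 of 6 cases (all but RT library C), with adjusted p of 0.0757 to 0.193 in those cases. EPHA4 also had groups that did not overlap, lower with the drug, and was not called (-0.06, SE 0.05). Groups did not overlap for 24.8% of all tested genes. EPHA2 had a difference of 0.06 (95% interval -0.02 to 0.14) and EPHB3 of -0.01 (95% interval -0.09 to 0.06).

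The test of whether CANA acted differently with and without radiation was the interaction of drug and radiation. It called 0.103% of all genes, 0.0481% lower, and no member. EPHA7 missed the threshold: the difference made by CANA was -0.01 (SE 0.05) in unirradiated and -0.32 (SE 0.05) in irradiated cells, the interaction -0.31 (SE 0.06, unadjusted p = 5.51e-05, limma adjusted p = 0.0501) and the rank 16. It was called lower under library weights (adjusted p = 0.0129), quantile normalization (0.0382) and a filter at a mean rlog of 5 (0.0456), and not without a filter (0.299). Leaving out 1 library in turn gave adjusted p of 0.0109 to 0.232, under the threshold without control library B or C, CANA library B or RT library C. The other 8 tested members had interactions of -0.10 to 0.08 with adjusted p of 0.546 to 0.978. These comparisons share libraries: the RT group stands in both the RT difference and the CANA + RT difference.

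**Figure D5:**
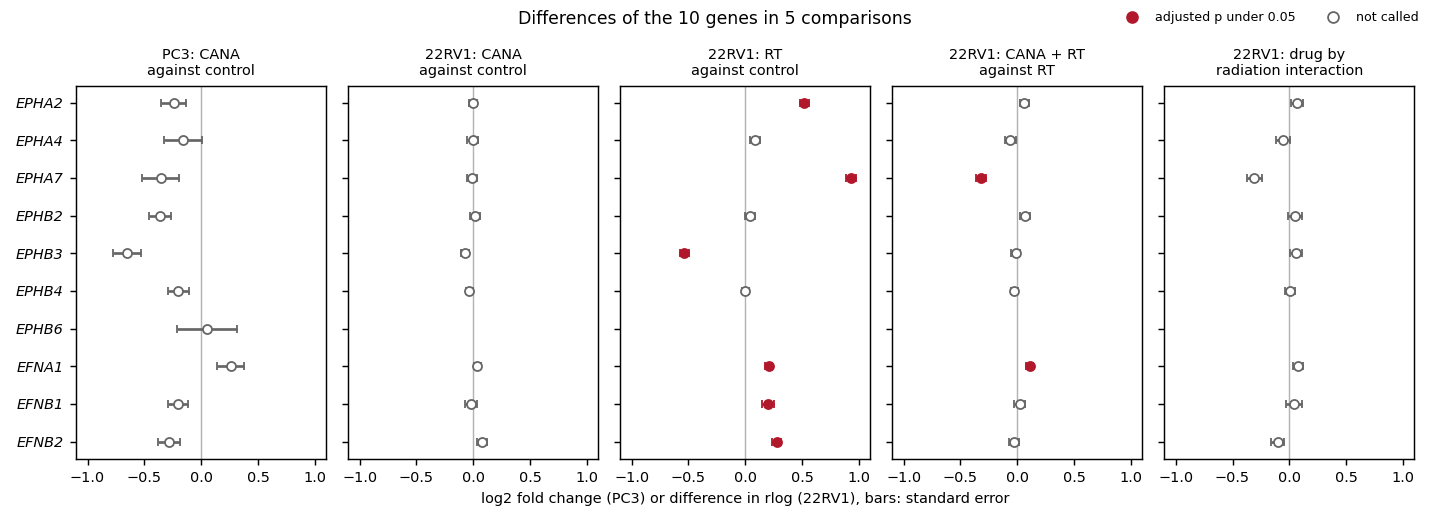
Differences of the 10 genes in 5 comparisons, as log2 fold change (PC3) or difference in rlog (22RV1), with bars for the standard error. Red points passed an adjusted p under 0.05 in limma and open points did not. EPHB6 has no 22RV1 point, since it lay under the filter. EPHA7 is at 0.93 for RT and at -0.32 for CANA + RT against RT, and every PC3 point is open.

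Against untreated cells, CANA + RT gave 6 members higher and 1 lower, with 28.4% of all tested genes called higher and 29.2% lower. EPHA7 rose by 0.61 (SE 0.05), EPHA2 by 0.58 (SE 0.04), EFNA1 by 0.32 (SE 0.03), EFNB2 by 0.25 (SE 0.04) and EFNB1 by 0.22 (SE 0.05), and EPHB3 fell by 0.55 (SE 0.04). EPHB2 rose by 0.11 (SE 0.04, limma adjusted p = 0.032), from rlog 4.17, 4.16 and 4.19 in control to 4.22, 4.29 and 4.33 in CANA + RT libraries, and this call was lost in 6 of 11 other settings. EPHB2 is a low gene in this line.

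Against CANA alone, CANA + RT gave 5 members higher and 1 lower, with 28.2% of all tested genes higher and 28.8% lower. EPHA7 rose by 0.62 (SE 0.05), EPHA2 by 0.58 (SE 0.04), EFNA1 by 0.28 (SE 0.03), EFNB1 by 0.24 (SE 0.05) and EFNB2 by 0.17 (SE 0.04). EPHB3 fell by 0.48 (SE 0.04). The same 6 members were thus called, in the same directions, for radiation without and with the drug, and the difference between these effects is the interaction given above, in which EPHA7 missed the threshold and was called under some other settings.

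Genes around the members were counted too. Of 12 other family genes, 9 were tested in PC3 and 11 in 22RV1, and none was called for CANA in either line, as was the case for all genes. With RT, EPHA1 (0.42, SE 0.05), EFNB3 (0.48, SE 0.05), EFNA3 (0.22, SE 0.04) and EFNA4 (0.19, SE 0.04) rose and EPHA6 fell by 0.14 (SE 0.04). These were 4 higher and 1 lower of 11 tested, where 28.4% of all tested genes were called higher and 29.4% lower. The RT median of the list was 0.03 in rlog. EPHA10 rose by 0.14 (SE 0.05) in CANA + RT against control in addition to these 5 genes, which were called there in the same directions. In that comparison 28.4% of all tested genes were called higher and 29.2% lower.

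Of 34 partners and effectors on the receptor side (adaptors, exchange factors, kinases and phosphatases that bind Eph receptors), 32 were tested. RT raised 16 and lowered 3, against 28.4% higher and 29.4% lower among all tested genes, with a list median of 0.07. PTPRO, a phosphatase that acts on Eph receptors (known from the chick), rose by 1.08 (SE 0.05), GRB10 and GRB7, adaptors that bind receptor tyrosine kinases, by 0.82 (SE 0.04) and 0.52 (SE 0.04), and the kinase ABL2 by 0.38 (SE 0.04). With CANA + RT against RT 1 of the 32 was called, where 2.57% of all tested genes were called. This was ROCK2, a kinase downstream of RhoA, which fell by 0.16 (SE 0.03). In PC3 cells 26 of the 32 had negative differences with CANA, with a list median of -0.23, and none was called. The median of all tested PC3 genes was -0.01. These differences include CANA library B, in which long transcripts were low, and the list was not examined without that library or with the length curve.

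Of the 7 partners on the ephrin side, RT raised 4 and lowered 2, where 57.8% of all tested genes were called. RGS3, which binds B-class ephrins through its PDZ domain, fell by 0.45 (SE 0.04), PICK1 fell by 0.13 (SE 0.04), PTPN13, a phosphatase of B-class ephrins, rose by 0.29 (SE 0.03) and GRIP1, a scaffold, by 0.17 (SE 0.05). Of 9 genes of ephrin shedding and membrane cleavage, RT raised 2 (RHBDL2 by 0.14, ADAM17 by 0.10) and lowered 3, a share near that of all genes. Of these 3, PSENEN and PSEN2, parts of gamma-secretase, fell by 0.14 (SE 0.03) and 0.12 (SE 0.04). In none of these lists was a gene called for CANA alone, in PC3 or in 22RV1.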

How the data were processed

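RNA of PC3 and 22RV1 cells was read as single-end libraries. Per the paper's methods, the authors used Cutadapt for trimming, HISAT2 (genome hg38), a strand-aware count of exon reads and DESeq2 (the submitters' processing notes also name Trimmomatic), with versions not given in the sources used here. The PC3 values the authors deposited are a signal of read counts divided by a DESeq2 size factor, and whole reads could be recovered within 0.01 for 99.9989% of 91170 values. For 22RV1 the authors deposited log2 values from the rlog function, which pull differences of low genes towards 0. Deposited fold changes, test statistics and p-values of the authors' own comparisons were not used, nor were 51 columns of per-sample values without a sample name.

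The 22RV1 tables were joined to 12 libraries, since the 15 columns they share were equal within 5.0e-09. Genes without a symbol (0.0246% of PC3 values) were left out. limma 3.58.1 in R 4.3.3, with a trend of spread on level, tested log2(value + 1) in PC3 where the mean reached 10 normalized reads, and rlog in 22RV1 where it reached 3. Benjamini-Hochberg adjustment ran over all tested genes and 0.05 was the threshold. Alternatives were pseudocounts of 0.5 and 5, no filter and a stricter one, edgeR 4.0.16 and DESeq2 1.42.0 on recovered PC3 reads, quantile normalization, library weights, a replicate block, a fit of the compared groups alone and each library left out. A length curve was added after seeing the data. Exon lengths came from GENCODE on hg38, with a canonical length for 97.2% of tested PC3 genes, and promoters from RefSeq. The limma test was checked on simulated data. That simulation held no library that followed transcript length, as CANA library B of PC3 did, so it does not cover that case. The 10 members are named in every comparison. Of the other lists up to 4 called genes per comparison with the smallest p are named, and every called gene of the other family genes. Members and lists were chosen with earlier results of these data known. The value of 1 further line marker is not reported here.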

Additional observations from a re-analysis of the deposited data

Results flagged for a closer look

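For 4 of 30 pairs of comparisons, in 3 members, every drug library lay on one side of its reference mean in one setting and on the other side in another. The share of all genes that meet this rule was not computed, so the count says nothing particular to these members. The rule has no minimum size: EFNB2 libraries at -0.063 to -0.0052 in irradiated 22RV1 cells met it. The 30 pairs include EPHB6, which lay under the filter in 22RV1. None of these differences between settings was tested across cell lines. EPHA2 had a mean log2 difference of -0.24 with CANA in PC3 cells and of 0.062 with CANA in irradiated 22RV1 cells. EPHB2 had -0.36 in PC3 cells and 0.066 in irradiated 22RV1 cells. EFNB2 had -0.28 in PC3 cells and 0.075 in unirradiated 22RV1 cells, and -0.028 in irradiated 22RV1 cells. Within 22RV1 the EFNB2 difference between unirradiated and irradiated cells was tested as the interaction, at -0.10 (SE 0.06, limma adjusted p = 0.567). With equal library weights and all libraries, limma called none of these 3 members for CANA in PC3 or in 22RV1. With estimated library weights limma called all 3 lower in PC3 (adjusted p = 0.00764 for EPHA2, 0.000639 for EPHB2 and 0.0136 for EFNB2). That setting called 4515 of 13450 PC3 genes, higher and lower together. With the length curve none of these 3 members was called in PC3. Groups of 3 libraries were not tested for outliers.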

How the results depend on the processing

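The radiation calls of EPHA2, EPHA7, EPHB3, EFNA1, EFNB1 and EFNB2 in 22RV1, and the lower EPHA7 with CANA + RT against RT, kept their direction and call under every alternative run. In PC3, DESeq2 called 350 genes and 1 member (EPHB3, lower), library weights 4515 genes with 6 members lower and 1 higher, and the length curve 41 genes, against 0 for limma with equal weights. Leaving out libraries in PC3 gave 0 to 2683 of 13450 genes, in both directions, and 0 to 3 members lower, the highest without CANA library B.

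Without the filter on low values, 2 members (EPHB3 and EPHB6) were lower with RT and with CANA + RT against control. Of 20967 genes, RT then gave 8327 and CANA + RT against control 8292, higher and lower together. EPHB6 is a low gene in this line, with a mean rlog of 1.84 in control. CANA + RT against RT gave 105 genes and 0 members higher without the filter. That comparison gave 1148 genes with library weights, 1188 with only the groups compared, and 95 to 236 genes with 0 to 1 members higher when a library was left out. The interaction gave 0 genes without the filter, 77 with library weights and 0 to 116 when a library was left out (116 without control library C). It gave 1 member lower (EPHA7) under the stricter filter, quantile normalization and library weights, and 0 to 1 when a library was left out.

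Differences near 0 changed sign without a call. In PC3 with library weights EPHA4 was at 0.021 and EPHB6 at -0.21, and EPHB6 ran from -0.13 to 0.23 over the libraries left out. In 22RV1 with quantile normalization EPHB4 was at 0.030 (RT against control) and 0.0010 (CANA + RT against control), and EPHA4 at -0.019 (CANA + RT against control) and -0.018 (CANA + RT against CANA). With library weights EPHB4 was at 0.0050 for RT. Over the libraries left out, CANA against control ran from -0.030 to 0.018 in EPHA2, -0.025 to 0.0049 in EPHA4, -0.069 to 0.036 in EPHA7, -0.015 to 0.049 in EPHB2 and -0.052 to 0.013 in EFNB1. EPHB4 ran from -0.022 to 0.023 for RT, -0.011 to 0.022 for CANA + RT against CANA and -0.018 to 0.027 for the interaction. For CANA + RT against RT, EFNB1 ran from -0.021 to 0.066 and EFNB2 from -0.074 to 0.0058, and the interaction of EFNB1 from -0.0013 to 0.086.

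Libraries with the same letter in different groups had correlations of their deviations from 0.045 to 0.12 in PC3 and from -0.14 to 0.43 in 22RV1. In 22RV1 1 of 12 libraries correlated best with its own letter in every other group. In PC3, which has a single other group, 4 of 6 libraries did. These values do not settle whether letters pair libraries in PC3, and the main fit used no block in either line. A replicate block gave 0 called genes in PC3, 8514 for RT against control and 479 for CANA + RT against RT. With the block, 1 member was called lower in the interaction (EPHA7, adjusted p = 0.0497 in limma against 0.0501), and no other call of a member changed. The causes of these changes were not tested. The unknown depth of the 22RV1 libraries limits what can be read from EPHB2 and EPHB6, the lowest members there.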
